A study of Mus musculus with 20 samples.

Results

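The mitosis genes are 44 genes chosen by name for their work in cell division, of which 39 were measured among the 18820 mouse genes tested. They were chosen with earlier results of these data known, so their shares set against all genes may not be independent of the data. For each gene the probe set that carries its symbol alone was used, and where a gene had several, the brightest on average across the 20 arrays. Ccnb1, the main mitotic cyclin, has no probe set under its own symbol, and Foxm1, Kif20a, Nusap1 and Ube2c occur only in probe sets shared with other symbols, so these 5 genes are not analysed here.

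The arrays come from a pair of mouse lines labelled hypothalamic neuronal cells, mHypoE-46 (E46), labelled serotonin sensitive, and mHypoA-2/12 (A2/12), labelled serotonin unresponsive. Each of the 5 groups has 4 arrays: untreated E46 controls, E46 with serotonin labelled 1 µg/ml, E46 with serotonin labelled 100 µg/ml, A2/12 with serotonin labelled 100 µg/ml and A2/12 controls. All groups were grown to near confluence in medium with 10% fetal calf serum, moved to serum-free medium, and exposed for 24 h, in the serotonin groups after 4 h without serum. For the E46 serotonin arrays another label gives the doses the other way round, so doses are those of the titles, and the 2 groups at the labelled 100 are called treated E46 and treated A2/12. Each line is a single permanent line that divides in culture, unlike mature neurons, and no label says that the 4 arrays of a group are separate cultures, so p-values here reflect array-to-array spread, which may be technical.

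Cells enter mitosis when the kinase Cdk1, bound to A- and B-type cyclins and switched on by Cdc25 phosphatases, is active. Polo and Aurora kinases then build the spindle, kinetochores tie chromosomes to microtubules, and the spindle checkpoint holds back the anaphase-promoting complex until every chromosome is attached. Securin and cyclin B are then destroyed, separase opens the cohesin rings, and the central spindle directs the cut between the daughter cells. Most of these genes are transcribed in a wave late in the cell cycle, and in immortal lines they mark cells that are dividing.

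All values are deposited log2 expression levels, and a change is a log2 difference ± SE between groups of 4 arrays, called at an adjusted p below 0.05. All 39 measured genes lay above a background level (4.35 to 4.66 by group) below which 95% of 1157 olfactory and vomeronasal receptor genes lay. The neuronal label was only partly matched: Rbfox3 and Snap25, genes of mature neurons, lay within that receptor range in each group. Above it lay 6 or 7 of 17 neuron markers, among them Map2, at 10.43 in E46 controls and 9.62 in A2/12 controls. An array's brightness was followed by its upper quartile over all probe sets. It was 8.23 to 8.31 in treated E46 against 8.09 to 8.26 in E46 controls, and 8.27 to 8.31 in treated A2/12 against 8.16 to 8.27 in A2/12 controls. The 4 arrays under 8.2 were E46 control array 1, E46 arrays 1 and 3 at the labelled 1, and A2/12 control array 2. E46 control array 1 lay below its group mean for 37 of the 39 genes, and array 1 at the labelled 1 for 38. Without those 4 arrays the counts of called mitosis genes given below became 31 in treated E46, 35 in treated A2/12 and 0 at the labelled 1. Of all genes 40.7%, 47.8% and 0.00531% were then called, in the same order. Averaged over the 39 genes, the level of an array was 8.92 to 9.05 in treated E46 against 9.18 to 9.42 in E46 controls, 9.27 to 9.50 in E46 at the labelled 1, and 8.33 to 8.53 in treated A2/12 against 9.25 to 9.42 in A2/12 controls. Both treated groups lay below all other arrays, and treated A2/12 lay below treated E46.

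**Figure D1:**
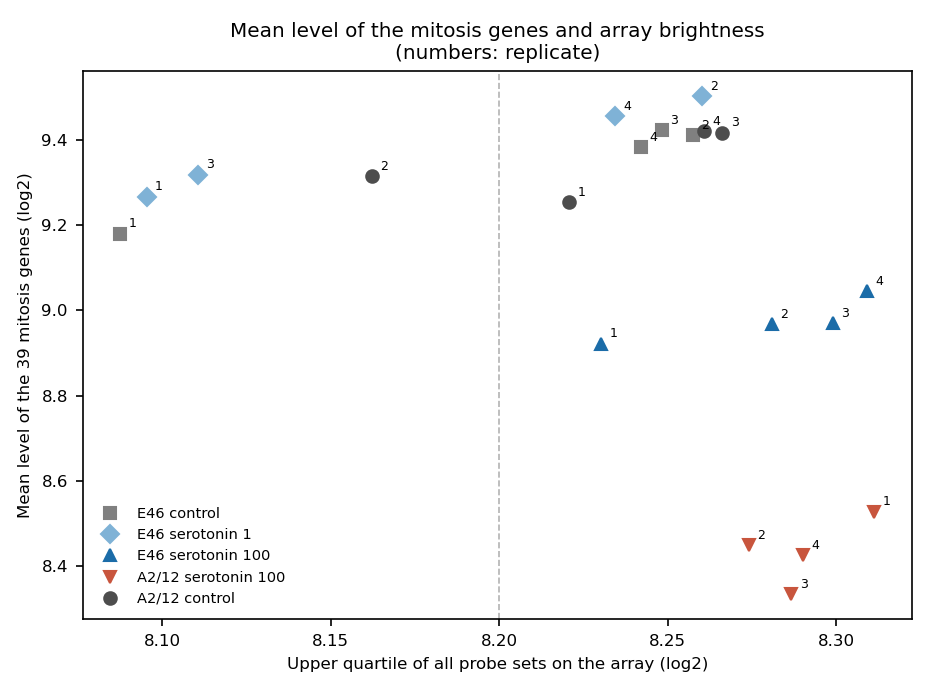
Mean level of the 39 mitosis genes (y axis, log2) against the upper quartile of all probe sets (x axis, log2) for each of the 20 arrays, with replicate numbers; the dashed line marks 8.2. The 4 treated E46 arrays (8.92 to 9.05) and the 4 treated A2/12 arrays (8.33 to 8.53) lie below the 12 other arrays, and 4 of those 12 lie left of the line.

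The labelled 100 was tested in both lines against their own controls. In treated E46, 28 of the 39 mitosis genes fell, 1 rose and 10 were not called, while 19.3% of all genes were called lower and 20.3% higher. Their median change was -0.38, with all genes at -0.00346, and it ran from -1.01 for the proliferation antigen Mki67 to 0.34 for the centrosome kinase Nek2. In treated A2/12, the line labelled unresponsive, 35 of the 39 fell, 0 rose and 4 were not called (Bub1, Bub3, Mad2l1 and Pttg1), while 21.1% of all genes were called lower and 24.8% higher; the limma test at an unadjusted p below 0.05 gave the same 35 (49.9% of all genes). Their median change there was -0.91, with all genes at 0.00172. Many of all genes lay within the receptor range, so the 12487 genes with a mean above it were also tested alone. Then 30 mitosis genes fell and 1 rose in treated E46, against 28.1% and 31.6% of those genes. In treated A2/12 35 fell and 0 rose, against 30.3% and 37.1%. In bulk RNA, fewer dividing cells and less of these mRNAs per cell cannot be told apart.

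At least 2-fold falls were called for Mki67 alone in E46 (4.11% of all genes) and for 17 mitosis genes in A2/12 (6.44% of all genes). The arrays of the 2 groups did not overlap for 25 genes that lay lower in treated E46 (19.4% of all genes) and 35 that lay lower in treated A2/12 (19.9% of all genes). Called lower in both lines were 26 mitosis genes, of the 28 that fell in E46 and the 35 that fell in A2/12, while 12.8% of all genes were called lower in both. Arrays also carry a position number in their labels, 5, 7 or 9, and each number holds 1 or 2 arrays of each of these groups. Within these numbers the median change of the mitosis genes in E46 was -0.34, -0.47 and -0.48, and in A2/12 it was -0.97, -0.82 and -0.996. Each such fit leaves some groups with 1 array, so genes called within a number are not counted. A row letter in the same labels mostly follows the groups and is never shared by the lines, so row and line cannot be told apart, and in each line 1 row holds both kinds of array, 2 treated and 1 control. With the row as a block, chosen after seeing the data, 19 mitosis genes fell in treated E46 (median change -0.46; 12.7% of all genes), 32 fell in treated A2/12 (median -0.94; 15.9%), and the difference of the 2 responses was called for 12, in each the A2/12 change being the lower one (4.48%). Tested against a fold of 1.5 in place of no change, Mki67 alone was called in E46, a smaller share than the 8.21% of all genes, and 21 mitosis genes were called in A2/12 (13.8% of all genes).

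Markers of other cell types moved too. Of 10 fibroblast and smooth muscle markers, of which 9 lay above the receptor range in treated E46 and in E46 controls, 8 fell in treated E46, and their array means were 7.35 to 7.94 there against 8.95 to 9.08 in E46 controls. In treated A2/12, 6 fell and 2 rose, with array means of 8.03 to 8.40 against 9.74 to 9.82 in A2/12 controls. Of 10 progenitor and astrocyte markers 6 fell in treated E46, with array means of 6.66 to 6.71 against 7.34 to 7.49 in E46 controls, while Gfap and Aqp4, which define astrocytes, lay within the receptor range in each group. In treated A2/12, 4 of these 10 fell and 1 rose, with array means of 5.53 to 5.65 against 5.80 to 5.90 in A2/12 controls. Of 17 neuron markers, of which 7 lay above the receptor range in the controls of each line, 4 fell (23.5%) and 0 rose in each line. Of all genes 19.3% were called lower and 20.3% higher in treated E46, and 21.1% and 24.8% in treated A2/12. Map2 averaged 8.64 in treated E46 against 10.43 in E46 controls, and 7.70 in treated A2/12 against 9.62 in A2/12 controls. The part of all these markers in the changes of the mitosis genes was not tested.

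**Figure D2:**
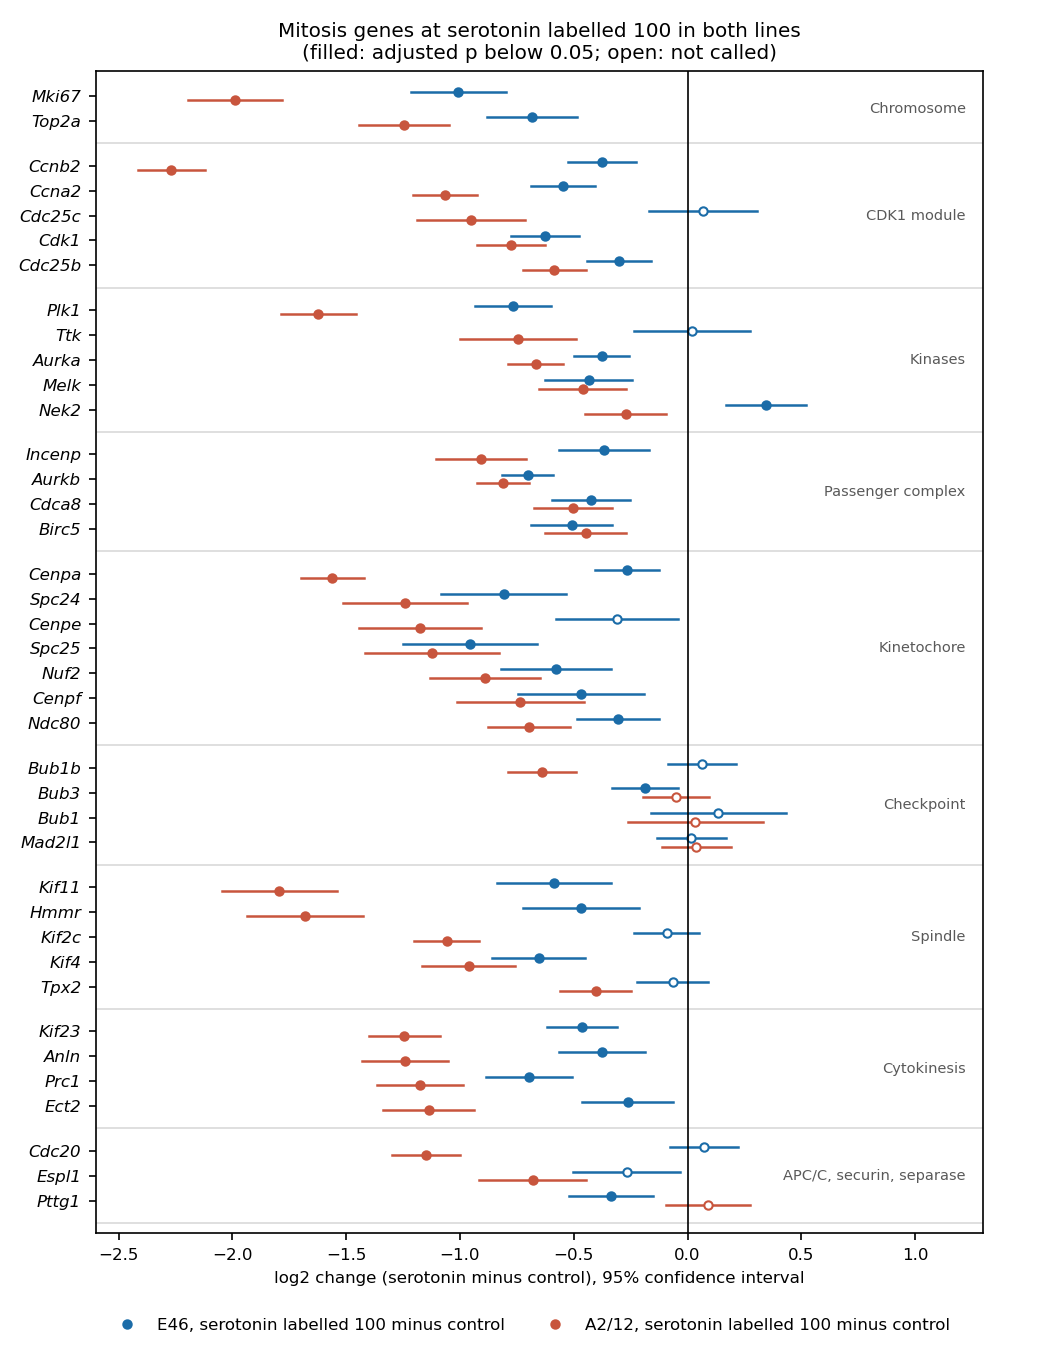
Log2 change at serotonin labelled 100 minus control (x axis, with 95% confidence interval) of each of the 39 mitosis genes, grouped by role, with E46 in blue above A2/12 in red; filled points were called at an adjusted p below 0.05. Most points lie left of 0 in both lines, the red ones farther left for 35 of 39 genes, and of the roles the checkpoint genes have the median nearest to 0 in each line.

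The promoters of the listed genes, measured or not and called or not, were searched for motifs known from cell cycle genes. These were TTTGAA or TTCGAA, core letters of the cell cycle genes homology region that MuvB complexes bind, and CCAAT, which the factor NF-Y binds. Shares over all the listed promoters describe a list picked for cell division, whatever the arrays showed. RefSeq's table (GRCm38.p6; 250 bases before to 50 after each start) held 39 promoters of 36 of the 44 genes. On either strand, TTTGAA or TTCGAA occurred in 30 of the 39 (76.9%), against 19.2% of all 32851 promoters. CCAAT also occurred in 30 (76.9%), against 37.4%, and both occurred in 27 (69.2%), against 7.52%. Of the 24 genes with a promoter that fell in treated E46, 20 held TTTGAA or TTCGAA, as did 6 of the 8 not called, so the motif was common on both sides of the threshold. Nek2, which rose, held CCAAT and no TTTGAA or TTCGAA in this window. In treated A2/12 the counts were 24 of 29 that fell and 2 of 4 not called. A match is only a match of letters. The 250 bases before the start are printed for the 4 genes with both motifs and the smallest p in E46 (Mki67 at chr7:135716380-135716629, minus strand; Plk1 at chr7:122159185-122159434, plus strand; Cdk1 at chr10:69352913-69353162, minus strand; Prc1 at chr7:80294201-80294450, plus strand) and for Mad2l1 (chr6:66534971-66535220, plus strand), which has neither motif and was not called. Capitals mark the motifs on either strand.
Mki67: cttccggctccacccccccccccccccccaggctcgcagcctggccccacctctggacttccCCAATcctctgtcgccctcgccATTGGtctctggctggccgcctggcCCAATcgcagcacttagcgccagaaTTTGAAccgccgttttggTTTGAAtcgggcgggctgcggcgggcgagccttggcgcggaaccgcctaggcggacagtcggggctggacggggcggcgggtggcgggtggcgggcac
Plk1: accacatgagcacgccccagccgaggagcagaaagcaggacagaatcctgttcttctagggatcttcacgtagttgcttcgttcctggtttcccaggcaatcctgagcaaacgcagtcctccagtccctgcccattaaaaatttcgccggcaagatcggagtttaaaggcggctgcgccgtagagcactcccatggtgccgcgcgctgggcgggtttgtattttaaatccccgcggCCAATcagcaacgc
Cdk1: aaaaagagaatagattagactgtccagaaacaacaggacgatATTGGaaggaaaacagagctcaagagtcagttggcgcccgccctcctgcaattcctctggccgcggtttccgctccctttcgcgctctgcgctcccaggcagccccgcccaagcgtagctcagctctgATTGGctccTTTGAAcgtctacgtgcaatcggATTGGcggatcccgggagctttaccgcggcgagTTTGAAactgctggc
Prc1: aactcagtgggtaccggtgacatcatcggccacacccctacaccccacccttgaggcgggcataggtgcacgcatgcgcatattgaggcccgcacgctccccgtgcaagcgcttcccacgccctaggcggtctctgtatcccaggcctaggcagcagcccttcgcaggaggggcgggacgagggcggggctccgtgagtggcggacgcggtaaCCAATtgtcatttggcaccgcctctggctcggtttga
Mad2l1: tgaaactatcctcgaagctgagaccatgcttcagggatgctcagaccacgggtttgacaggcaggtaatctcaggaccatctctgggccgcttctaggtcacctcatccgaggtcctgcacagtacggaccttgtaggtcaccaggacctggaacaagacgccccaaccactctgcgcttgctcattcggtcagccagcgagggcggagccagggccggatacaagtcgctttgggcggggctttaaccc
The promoters of Mki67 and Cdk1 each hold 2 copies of TTTGAA and 3 of CCAAT. The TTTGAA of Plk1 begins 30 bases after the start, outside the stretch shown, and that of Prc1 begins 5 bases before the start and runs past the printed end.

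Both genes of the chromosome surface and DNA untangling fell in both lines. Mki67 encodes the Ki-67 protein, which coats mitotic chromosomes and is the usual marker of dividing cells. It lay at 9.83, 9.62, 9.65 and 9.76 in treated E46, against 10.54, 10.83, 10.82 and 10.71 in E46 controls. No treated array reached the lowest control, and the change was -1.01 ± 0.10 (adjusted p = 4.42e-08), 2.01-fold lower. The A2/12 arrays lay at 8.82, 8.77, 8.41 and 8.57 in treated A2/12, against 10.43, 10.60, 10.71 and 10.77 in A2/12 controls, a gap wider than in E46, with a change of -1.99 ± 0.10 (adjusted p = 8.34e-13), or 3.97-fold lower. Top2a, the topoisomerase that untangles sister chromatids, lay at 10.02, 10.03, 10.05 and 10.13 in treated E46, against 10.67, 10.76, 10.84 and 10.70 in E46 controls. Its groups did not overlap (change -0.69 ± 0.09, adjusted p = 4.6e-06). For A2/12 the values were 9.73, 9.70, 9.33 and 9.61 in treated A2/12, against 10.57, 10.88, 10.92 and 10.99 in A2/12 controls, again without overlap, and the change was -1.25 ± 0.09 (adjusted p = 4.74e-10).

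Cdk1 and its partners fell more unevenly: 4 of 5 measured genes fell in treated E46 and 5 of 5 in treated A2/12. The kinase gene Cdk1 itself lay at 11.20, 11.04, 10.99 and 11.09 in treated E46, against 11.58, 11.66, 11.86 and 11.73 in E46 controls. Its arrays did not overlap, and the change was -0.63 ± 0.07 (adjusted p = 3.71e-07). Treated A2/12 arrays were also all below their controls, at 10.54, 10.40, 10.59 and 10.41 in treated A2/12, against 11.30, 11.17, 11.36 and 11.21 in A2/12 controls, with a change of -0.78 ± 0.07 (adjusted p = 1.01e-08). Ccnb2, a B-type cyclin, had the largest fall of any mitosis gene in A2/12. It lay at 9.43, 9.31, 9.36 and 9.15 in treated A2/12, against 11.46, 11.55, 11.68 and 11.62 in A2/12 controls, a change of -2.27 ± 0.07 (adjusted p = 4.42e-15), or 4.82-fold lower. In E46 the same cyclin lay at 11.32, 11.32, 11.22 and 11.31 in treated E46, against 11.57, 11.74, 11.73 and 11.64 in E46 controls, with no overlap but a much narrower gap, and changed by -0.38 ± 0.07 (adjusted p = 0.000172). Ccna2, the A-type cyclin, changed by -0.55 ± 0.07 in treated E46 and by -1.06 ± 0.07 in treated A2/12, both called. Ccnb2 in treated E46 was at -0.32 and not called once the row was a block (adjusted p = 0.113).

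The phosphatases that switch on Cdk1 differed from each other. Cdc25b fell in both lines. It lay at 8.49, 8.50, 8.46 and 8.71 in treated E46, against 8.80, 8.81, 8.85 and 8.90 in E46 controls, a change of -0.30 ± 0.07 (adjusted p = 0.000937). Its A2/12 values were 9.74, 9.78, 9.87 and 9.76 in treated A2/12, against 10.49, 10.28, 10.40 and 10.31 in A2/12 controls, a change of -0.58 ± 0.07 (adjusted p = 2.19e-07). Neither pair of groups overlapped, and the E46 arrays lay below the A2/12 arrays of the same treatment throughout. Cdc25c was not called in E46, where its arrays overlapped at 7.43, 7.48, 7.65 and 7.75 in treated E46, against 7.25, 7.44, 7.72 and 7.62 in E46 controls (change 0.07 ± 0.11, adjusted p = 0.706). In A2/12 it fell, at 6.89, 6.94, 6.92 and 7.01 in treated A2/12, against 7.87, 7.86, 7.98 and 7.85 in A2/12 controls, with a change of -0.95 ± 0.11 (adjusted p = 3.93e-07) and no overlap.

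**Figure D3:**
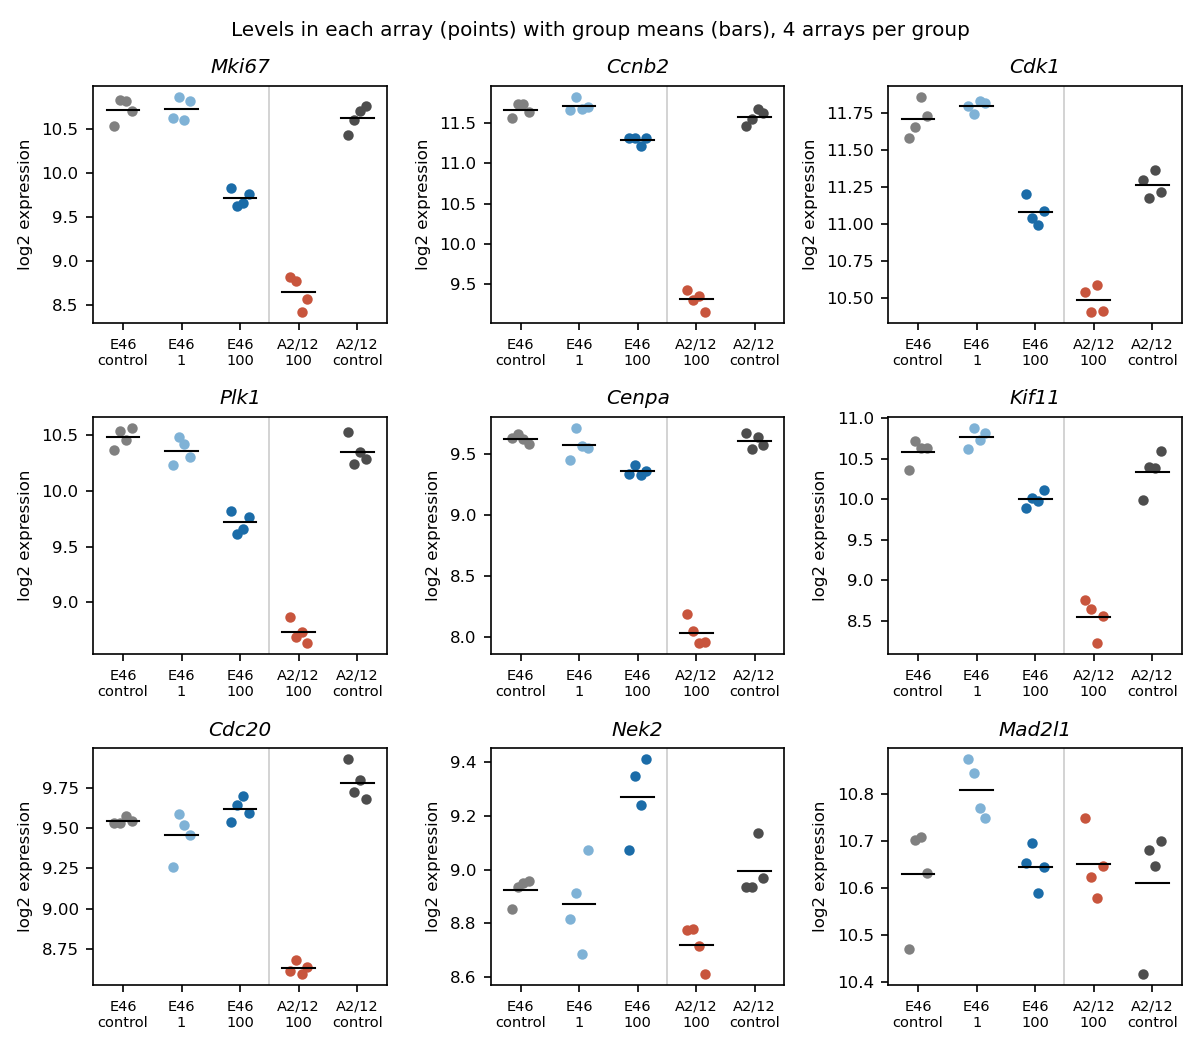
Log2 expression of 9 mitosis genes (y axes, each with its own range) in the 4 arrays of each group (points) with the group mean (bar); groups run along the x axis. Mki67, Ccnb2, Cdk1, Plk1, Cenpa and Kif11 lie lower in both treated groups, Cdc20 only in treated A2/12, Nek2 higher in treated E46 and lower in treated A2/12, and Mad2l1 overlaps between each treated group and its control.

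Of the 5 mitotic kinase genes outside the passenger complex, 3 fell and 1 rose in treated E46, and all 5 fell in treated A2/12. Plk1, the Polo kinase, lay at 9.82, 9.62, 9.66 and 9.77 in treated E46, against 10.37, 10.54, 10.46 and 10.57 in E46 controls. The treated arrays were all lower (change -0.77 ± 0.08, adjusted p = 9.29e-08). Its A2/12 arrays lay at 8.87, 8.69, 8.73 and 8.63 in treated A2/12, against 10.53, 10.24, 10.35 and 10.29 in A2/12 controls, with a wider gap and a change of -1.62 ± 0.08 (adjusted p = 6.74e-13). Aurka, the Aurora kinase of the spindle poles, lay at 8.55, 8.49, 8.55 and 8.58 in treated E46, against 8.84, 8.90, 8.92 and 9.01 in E46 controls, a change of -0.38 ± 0.06 (adjusted p = 1.9e-05) without overlap. In the A2/12 line Aurka lay at 8.38, 8.38, 8.43 and 8.37 in treated A2/12, against 9.05, 8.99, 9.16 and 9.03 in A2/12 controls, also without overlap (change -0.67 ± 0.06, adjusted p = 4.33e-09). Melk, a kinase of dividing and progenitor cells, fell in both (-0.44 ± 0.09 in treated E46 and -0.46 ± 0.09 in treated A2/12).

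Nek2 and Ttk departed from that pattern in E46. Nek2, a kinase that helps separate the centrosomes, was the 1 mitosis gene that rose. It lay at 9.07, 9.35, 9.24 and 9.41 in treated E46, against 8.85, 8.93, 8.95 and 8.96 in E46 controls, so the lowest treated array was above the highest control (change 0.34 ± 0.08, adjusted p = 0.00226). The A2/12 values went the other way, at 8.78, 8.78, 8.72 and 8.61 in treated A2/12, against 8.93, 8.94, 9.14 and 8.97 in A2/12 controls, with a change of -0.27 ± 0.08 (adjusted p = 0.0112); A2/12 control array 3 stood above the other controls. Nek2 was called in neither line with the row as a block, at 0.25 in treated E46 (adjusted p = 0.337) and -0.19 in treated A2/12 (adjusted p = 0.465). Ttk, the Mps1 kinase that starts the checkpoint signal, lay at 7.64, 8.01, 7.86 and 8.05 in treated E46, against 7.54, 8.02, 8.04 and 7.87 in E46 controls. These arrays overlapped, and the change of 0.02 ± 0.12 was not called (adjusted p = 0.92). Ttk fell in treated A2/12, at 7.71, 7.59, 7.30 and 7.50 in treated A2/12, against 8.07, 8.19, 8.36 and 8.47 in A2/12 controls, a change of -0.75 ± 0.12 (adjusted p = 2.62e-05) without overlap.

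Of the chromosomal passenger complex, which corrects faulty chromosome attachments, 4 of 4 genes fell in each line. Aurkb, its kinase, lay at 10.17, 10.11, 10.10 and 10.19 in treated E46, against 10.87, 10.84, 10.82 and 10.85 in E46 controls. All treated arrays were lower, with a change of -0.70 ± 0.05 (adjusted p = 1.38e-09). It fell in A2/12 too, at 10.26, 10.30, 10.19 and 10.27 in treated A2/12, against 11.04, 11.04, 11.13 and 11.06 in A2/12 controls, without overlap and with a change of -0.81 ± 0.05 (adjusted p = 6.75e-11). Incenp, the scaffold of the complex, lay at 8.28, 8.39, 8.24 and 8.36 in treated E46, against 8.49, 8.79, 8.82 and 8.64 in E46 controls, without overlap (change -0.37 ± 0.09, adjusted p = 0.00337). Its A2/12 arrays lay at 7.72, 7.82, 7.68 and 7.78 in treated A2/12, against 8.61, 8.57, 8.75 and 8.70 in A2/12 controls, also without overlap (change -0.91 ± 0.09, adjusted p = 5.68e-08). Birc5, which encodes survivin, changed by -0.51 ± 0.08 in treated E46 and -0.45 ± 0.08 in treated A2/12. Cdca8, which encodes borealin, changed by -0.42 ± 0.08 in treated E46 and -0.50 ± 0.08 in treated A2/12. Both were called in both lines. With the row as a block, Incenp in treated E46 (-0.31, adjusted p = 0.276) and Birc5 in treated A2/12 (-0.39, adjusted p = 0.0759) were not called.

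The spindle checkpoint genes had the median changes nearest to 0 of any role, 0.04 in treated E46 and -0.0085 in treated A2/12, with 1 of 4 lower in each line and not the same gene. Bub3, a checkpoint protein of the kinetochore, lay at 9.45, 9.43, 9.64 and 9.54 in treated E46, against 9.52, 9.74, 9.77 and 9.79 in E46 controls. The arrays overlapped, and the small change of -0.19 ± 0.07 (adjusted p = 0.0383) was no longer called without E46 control array 2, 3 or 4 or treated E46 array 1, 2 or 4, at -0.20 to -0.16 (adjusted p 0.0564 to 0.12), nor with the row as a block (-0.35, adjusted p = 0.0535). Its A2/12 arrays overlapped too, at 9.27, 9.23, 9.18 and 9.24 in treated A2/12, against 9.26, 9.27, 9.22 and 9.37 in A2/12 controls, and the change of -0.05 ± 0.07 was not called. Bub1b, which encodes the checkpoint inhibitor BubR1, lay at 8.87, 8.94, 8.98 and 8.97 in treated E46, against 8.71, 8.90, 8.97 and 8.92 in E46 controls, overlapping, with an uncalled change of 0.06 ± 0.07. In contrast, treated A2/12 arrays were all below their controls, at 8.57, 8.49, 8.56 and 8.54 in treated A2/12, against 9.13, 9.04, 9.28 and 9.26 in A2/12 controls, a change of -0.64 ± 0.07 (adjusted p = 1.83e-07). Mad2l1, which encodes the Mad2 inhibitor of the anaphase-promoting complex, lay at 10.65, 10.70, 10.59 and 10.64 in treated E46, against 10.47, 10.70, 10.71 and 10.63 in E46 controls. Its change of 0.02 ± 0.07 was not called, with a 95% confidence interval of -0.13 to 0.17. Its A2/12 arrays overlapped too, at 10.75, 10.62, 10.58 and 10.65 in treated A2/12, against 10.42, 10.68, 10.65 and 10.70 in A2/12 controls, with a change of 0.04 ± 0.07 and an interval of -0.11 to 0.19. Bub1, the checkpoint kinase, was called in neither line (0.13 ± 0.14 in treated E46 and 0.03 ± 0.14 in treated A2/12).

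Among 7 kinetochore and centromere genes, 6 fell in treated E46 and 7 in treated A2/12. Spc25, a subunit of the Ndc80 complex that grips microtubules, lay at 7.50, 7.45, 7.53 and 7.50 in treated E46, against 7.98, 8.65, 8.59 and 8.58 in E46 controls. The treated arrays were all below the controls, of which array 1 stood lowest, and the change was -0.95 ± 0.14 (adjusted p = 1.12e-05). In A2/12 it lay at 7.14, 6.87, 6.97 and 6.86 in treated A2/12, against 7.69, 8.02, 8.29 and 8.33 in A2/12 controls, a change of -1.12 ± 0.14 (adjusted p = 8.74e-07) without overlap. The other 3 subunits fell in both lines as well: the changes in treated E46 were -0.81 ± 0.13 for Spc24, -0.58 ± 0.12 for Nuf2 and -0.31 ± 0.09 for Ndc80. Their changes in treated A2/12 were -1.24 ± 0.13 for Spc24, -0.89 ± 0.12 for Nuf2 and -0.70 ± 0.09 for Ndc80.

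Cenpa, the histone variant that marks the centromere, lay at 9.33, 9.41, 9.33 and 9.36 in treated E46, against 9.63, 9.66, 9.62 and 9.58 in E46 controls. Its groups did not overlap, though the change was small (-0.27 ± 0.07, adjusted p = 0.00256). Treated A2/12 arrays lay far below their controls, at 8.19, 8.05, 7.95 and 7.96 in treated A2/12, against 9.66, 9.53, 9.63 and 9.57 in A2/12 controls, a change of -1.56 ± 0.07 (adjusted p = 9.5e-14). Cenpe, a kinetochore motor, lay at 8.38, 8.44, 8.51 and 8.50 in treated E46, against 8.47, 8.96, 8.91 and 8.73 in E46 controls; the arrays overlapped and the change of -0.31 ± 0.13 was not called (adjusted p = 0.0607). It fell in A2/12, at 7.49, 7.30, 7.01 and 7.24 in treated A2/12, against 8.22, 8.35, 8.48 and 8.70 in A2/12 controls, with a change of -1.18 ± 0.13 (adjusted p = 1.14e-07). Cenpf, a large kinetochore protein, changed by -0.47 ± 0.13 in treated E46 and -0.73 ± 0.13 in treated A2/12, both called. With the row as a block, the E46 changes of Cenpa (-0.21, adjusted p = 0.244), Cenpf (-0.53, adjusted p = 0.088) and Ndc80 (-0.33, adjusted p = 0.174) were not called.

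Of 5 spindle motors and microtubule binders, 3 fell in treated E46 and 5 in treated A2/12. Kif4, a motor of the chromosome arms and central spindle, lay at 8.41, 8.37, 8.23 and 8.40 in treated E46, against 8.81, 9.11, 9.02 and 9.08 in E46 controls. Treated arrays were all lower (change -0.65 ± 0.10, adjusted p = 1.17e-05). Its A2/12 arrays lay at 7.84, 7.81, 7.65 and 7.78 in treated A2/12, against 8.58, 8.67, 8.80 and 8.88 in A2/12 controls, a change of -0.96 ± 0.10 (adjusted p = 3.77e-08) without overlap. Kif11, the Eg5 motor that pushes the poles apart, lay at 9.89, 10.02, 9.98 and 10.11 in treated E46, against 10.36, 10.72, 10.64 and 10.63 in E46 controls, a change of -0.59 ± 0.12 (adjusted p = 0.000433). The gap was wider in A2/12, where it lay at 8.76, 8.65, 8.23 and 8.57 in treated A2/12, against 9.99, 10.40, 10.39 and 10.59 in A2/12 controls, a change of -1.79 ± 0.12 (adjusted p = 6.89e-11). Hmmr, a protein of the spindle poles that also binds hyaluronan, lay at 7.51, 7.67, 7.61 and 7.67 in treated E46, against 7.78, 8.18, 8.18 and 8.19 in E46 controls, without overlap, although E46 control array 1 stood below the other controls (change -0.47 ± 0.12, adjusted p = 0.00371). It fell further in A2/12, at 6.73, 6.49, 6.15 and 6.36 in treated A2/12, against 7.83, 8.10, 8.17 and 8.35 in A2/12 controls (change -1.68 ± 0.12, adjusted p = 2.3e-10).

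Kif2c and Tpx2 were called in A2/12 only. Kif2c, the MCAK protein that takes microtubules apart, lay at 9.11, 9.10, 9.20 and 9.24 in treated E46, against 9.10, 9.27, 9.33 and 9.30 in E46 controls. The arrays overlapped and the change of -0.09 ± 0.07 was not called. All treated A2/12 arrays were lower, at 8.28, 8.23, 8.08 and 8.23 in treated A2/12, against 9.18, 9.30, 9.27 and 9.29 in A2/12 controls, with a change of -1.06 ± 0.07 (adjusted p = 3.84e-11). Tpx2, which activates Aurora A on the spindle, lay at 9.94, 9.91, 9.88 and 9.90 in treated E46, against 9.88, 10.000, 9.99 and 10.02 in E46 controls, overlapping, with an uncalled change of -0.07 ± 0.07. In A2/12 it lay at 9.50, 9.46, 9.25 and 9.37 in treated A2/12, against 9.70, 9.83, 9.84 and 9.82 in A2/12 controls, a change of -0.40 ± 0.07 (adjusted p = 0.000104); A2/12 control array 1 stood below the other controls and still above each treated array. Its A2/12 change was -0.34 and not called with the row as a block (adjusted p = 0.0762).

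The 4 measured genes of the central spindle and cytokinesis fell in both lines. Prc1, which bundles the antiparallel microtubules of the central spindle, lay at 8.73, 8.79, 8.82 and 8.87 in treated E46, against 9.45, 9.51, 9.53 and 9.50 in E46 controls. Its treated arrays were all lower (change -0.70 ± 0.09, adjusted p = 1.98e-06). The values in A2/12 were 8.03, 7.87, 7.70 and 7.80 in treated A2/12, against 8.84, 8.90, 9.21 and 9.14 in A2/12 controls, with a change of -1.17 ± 0.09 (adjusted p = 5.8e-10). Kif23, the motor of the centralspindlin complex, lay at 9.36, 9.41, 9.47 and 9.49 in treated E46, against 9.76, 9.96, 9.94 and 9.92 in E46 controls, without overlap (change -0.46 ± 0.07, adjusted p = 2.84e-05). Its A2/12 arrays lay at 8.68, 8.72, 8.54 and 8.65 in treated A2/12, against 9.74, 9.93, 9.96 and 9.94 in A2/12 controls, a change of -1.24 ± 0.07 (adjusted p = 1.1e-11). Ect2, the exchange factor that switches on RhoA at the cleavage site, lay at 10.18, 10.43, 10.22 and 10.34 in treated E46, against 10.34, 10.66, 10.59 and 10.63 in E46 controls; these arrays overlapped, and the change of -0.26 ± 0.10 (adjusted p = 0.0344) was no longer called without E46 control array 2, 3 or 4 or treated E46 array 1 or 3, at -0.25 to -0.22 (adjusted p 0.0716 to 0.102). Ect2 in A2/12 lay at 9.34, 9.28, 8.93 and 9.24 in treated A2/12, against 10.13, 10.32, 10.44 and 10.45 in A2/12 controls, a change of -1.14 ± 0.10 (adjusted p = 2.54e-09) without overlap. Anln, which encodes the ring scaffold anillin, changed by -0.38 ± 0.09 in treated E46 and -1.24 ± 0.09 in treated A2/12, both called. Blocked by row, the E46 changes of Anln (-0.41, adjusted p = 0.0868) and Ect2 (-0.33, adjusted p = 0.217) were not called.

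Of the 3 genes of the anaphase step that were measured, 1 fell in treated E46 and the other two fell in treated A2/12. Pttg1, which encodes securin, the inhibitor of separase, lay at 6.77, 6.74, 6.89 and 6.93 in treated E46, against 6.88, 7.25, 7.35 and 7.18 in E46 controls. These arrays overlapped, and the change of -0.34 ± 0.09 (adjusted p = 0.00406) was called, though not with the row as a block (-0.43, adjusted p = 0.0738). The arrays of A2/12 overlapped too, at 7.10, 7.001, 7.17 and 7.14 in treated A2/12, against 7.17, 7.05, 6.90 and 6.94 in A2/12 controls, with an uncalled change of 0.09 ± 0.09. Cdc20, the activator of the anaphase-promoting complex, lay at 9.53, 9.64, 9.70 and 9.59 in treated E46, against 9.53, 9.53, 9.58 and 9.54 in E46 controls, overlapping, with an uncalled change of 0.07 ± 0.07. It lay far lower in treated A2/12, at 8.61, 8.68, 8.59 and 8.64 in treated A2/12, against 9.93, 9.72, 9.80 and 9.68 in A2/12 controls, a change of -1.15 ± 0.07 (adjusted p = 2.13e-11). Espl1, which encodes separase, lay at 7.60, 7.65, 7.73 and 7.87 in treated E46, against 7.80, 8.03, 7.95 and 8.13 in E46 controls; the change of -0.27 ± 0.11 was not called (adjusted p = 0.0669). In A2/12 it fell, at 7.82, 7.75, 7.81 and 7.75 in treated A2/12, against 8.62, 8.24, 8.60 and 8.41 in A2/12 controls, a change of -0.68 ± 0.11 (adjusted p = 3.04e-05).

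The labelled 1 was compared with the same E46 controls. No mitosis gene was called by limma, while 2 of all 18820 genes (0.0106%) were, and 1 mitosis gene, Mad2l1, had an unadjusted p below 0.05, as did 15.9% of all genes. Without array 2 at the labelled 1, 284 of all genes (1.51%) and again no mitosis gene were called. The median change of the mitosis genes was 0.05, with all genes at -0.04. Mad2l1 lay at 10.87, 10.84, 10.77 and 10.75 in E46 at the labelled 1, all above the control values given for it, and its change was 0.18 ± 0.07 (adjusted p = 0.255). Aurka lay at 8.97, 9.07, 9.01 and 9.10 at the labelled 1 and overlapped its controls (change 0.12 ± 0.06, adjusted p = 0.332). Mki67 lay at 10.63, 10.87, 10.61 and 10.82, overlapping too, with a change of 0.01 ± 0.10 and a 95% confidence interval of -0.20 to 0.22. Within the position numbers 5, 7 and 9 the median change of the mitosis genes was 0.22, -0.07 and -0.05.

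Set against the labelled 1 in place of the controls, treated E46 had 29 mitosis genes lower (17.8% of all genes) and 1, Nek2, higher (23.6% of all genes). This comparison shares the treated E46 arrays with the comparison against controls. Its changes included -1.02 ± 0.10 for Mki67 and -1.22 ± 0.14 for Spc25, the 2 genes at least 2-fold lower (3.47% of all genes), and 0.40 ± 0.08 for Nek2. Spc25 lay at 7.50, 7.45, 7.53 and 7.50 in treated E46 and at 8.52, 8.89, 8.86 and 8.60 at the labelled 1. Cenpe and Kif2c, uncalled against controls, were called here, at -0.40 ± 0.13 (adjusted p = 0.0168) and -0.18 ± 0.07 (adjusted p = 0.0368), while Incenp, called against controls, was not (-0.18 ± 0.09, adjusted p = 0.14). The Cenpe call ended without array 2 or 4 at the labelled 1 (adjusted p 0.0654 and 0.0506), and the Kif2c call without treated E46 array 1 or 2 or array 2, 3 or 4 at the labelled 1 (adjusted p 0.0509 to 0.102). Incenp was called, at -0.25, without array 3 at the labelled 1 (adjusted p = 0.0435). Only row C holds both groups, as treated E46 arrays 3 and 4 and array 1 at the labelled 1, an array of low upper quartile. A fit with the row as a block takes its change from those arrays alone, and the median change there was -0.27. With the row as a block 14 mitosis genes were lower and 3 higher (15.1% and 22% of all genes). Within the position numbers 5, 7 and 9 the median change was -0.59, -0.36 and -0.41.

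Whether the response to the labelled 100 differed between the lines was tested as E46 change minus A2/12 change. For 24 of the 39 mitosis genes the A2/12 change was the lower one and the difference was called (11.1% of all genes), and for Pttg1 alone the E46 change was the lower one (10.9% of all genes). Their median difference was 0.48, with all genes at -0.0156. The smallest adjusted p-values belonged to Ccnb2 (1.89 ± 0.10, adjusted p = 4.31e-11), Cenpa (1.29 ± 0.09, adjusted p = 2.48e-09) and Cdc20 (1.22 ± 0.10, adjusted p = 1.42e-08), a cyclin, a centromere histone and the anaphase activator. Next came Kif2c (0.97 ± 0.10), Plk1 (0.85 ± 0.11), Kif23 (0.78 ± 0.10), Kif11 (1.21 ± 0.17) and Hmmr (1.21 ± 0.17), of which all but Kif2c fell in both lines.

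By role, the difference was called for 2 of 2 chromosome genes, 4 of 4 cytokinesis genes, 4 of 5 spindle genes and 4 of 5 kinases outside the passenger complex. It was called for 1 of 4 passenger genes, 1 of 4 checkpoint genes and 3 of 7 kinetochore genes. With the array row as a block the calls of Plk1, Aurka, Ttk, Nek2, Top2a, Prc1, Ccna2, Cdc25b, Cdc25c, Incenp, Ndc80, Tpx2 and Pttg1 ended. Those include every call among the kinases outside the passenger complex and in the passenger complex. Of Cdk1 and its partners, only the call of Ccnb2 stayed, while most calls of the cytokinesis and spindle genes stayed. Of the 26 genes that fell in both lines, 10 had no called difference: Aurkb (0.11 ± 0.08, 95% confidence interval -0.05 to 0.27), Cdk1 (0.15 ± 0.10, interval -0.06 to 0.36), Birc5 (-0.06 ± 0.12), Melk (0.03 ± 0.13), Cdca8 (0.08 ± 0.12), Cenpf (0.27 ± 0.19), Nuf2 (0.31 ± 0.16), Spc24 (0.43 ± 0.18), Spc25 (0.17 ± 0.20) and Kif4 (0.31 ± 0.14). Nek2 changed in opposite directions, with a difference of 0.62 ± 0.12 (adjusted p = 0.00058). For Pttg1 the difference was -0.42 ± 0.13 (adjusted p = 0.0172). Under the row block these were 0.44 for Nek2 (adjusted p = 0.325) and -0.54 for Pttg1 (adjusted p = 0.201). Leaving out single arrays ended the call of 3 differences. That of Cdc25b (0.28 ± 0.09) was 0.23 to 0.28 without E46 control array 1 or 2, treated E46 array 4, A2/12 control array 1 or 3, or treated A2/12 array 1, 2 or 4 (adjusted p 0.0545 to 0.0857). That of Ndc80 (0.39 ± 0.12) was 0.35 to 0.37 without E46 control array 1, treated E46 array 3, A2/12 control array 4, or treated A2/12 array 2 or 3 (adjusted p 0.0505 to 0.0581). That of Tpx2 (0.34 ± 0.11) was 0.29 without treated A2/12 array 3 (adjusted p = 0.0571). Within the position numbers 5, 7 and 9 the median difference was 0.65, 0.35 and 0.50.

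**Figure D4:**
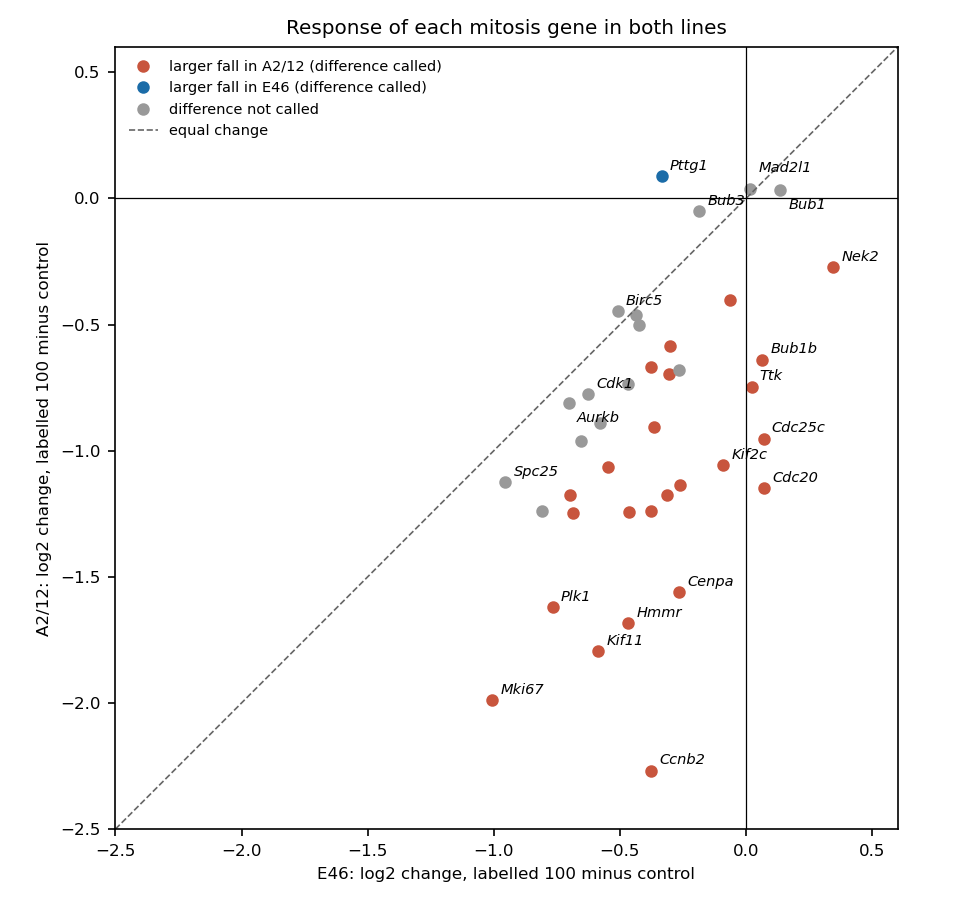
Log2 change at serotonin labelled 100 minus control in E46 (x axis) and A2/12 (y axis) of each of the 39 mitosis genes; the dashed line marks equal change. Of the points, 24 in red lie below the line with a called difference, Pttg1 in blue lies above it, and the 14 grey points, among them Aurkb, Birc5 and Cdk1, have no called difference.

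Untreated, the lines differed in 14 of the 39 mitosis genes (35.9%), a share near the 39.1% of all genes that were called. With only the 12487 genes whose mean lay above the receptor range tested, 16 of the 39 were called, against 56.2% of those genes. Of the 14 in the main fit, 7 were higher in E46 controls than in A2/12 controls (21.1% of all genes) and 7 lower (18.1% of all genes). The median difference of the 39 genes was 0.02. Higher in E46 were Prc1 (0.48 ± 0.09), Cdk1 (0.45 ± 0.07), Bub3 (0.42 ± 0.07), Cenpf (0.39 ± 0.13), Spc25 (0.37 ± 0.14), Cenpe (0.33 ± 0.13) and Kif4 (0.27 ± 0.10). Cdc25b was the 1 gene at least 2-fold lower in E46 (4.44% of all genes), with a difference of -1.53 ± 0.07 (adjusted p = 6.56e-14). The others lower in E46 were Espl1 (-0.49 ± 0.11), Ttk (-0.40 ± 0.12), Cdc25c (-0.38 ± 0.11), Bub1b (-0.30 ± 0.07), Cdc20 (-0.24 ± 0.07) and Aurkb (-0.22 ± 0.05). Leaving out 1 control array moved the number of higher genes, which was 3 without E46 control array 2 or 3 or A2/12 control array 1 or 2, 4 without E46 control array 4 and 10 without E46 control array 1, with 6 to 8 lower. Cenpe, Cenpf, Spc25 and Kif4 each lost their call without 4 or more of these arrays in turn, at adjusted p up to 0.185. Without E46 control array 1 the difference of Ttk was -0.30 and not called (adjusted p = 0.055). The control arrays did not overlap for the 7 lower genes (17.1% of all genes), nor for 4 that lay higher in E46 (18.5% of all genes). These 4 were Prc1, Cdk1, Bub3 and Tpx2, of which Tpx2 was not called. Mki67 lay at 10.72 ± 0.14 in E46 controls and 10.63 ± 0.15 in A2/12 controls (SD, n = 4 each), a difference that was not called (0.10 ± 0.10). Within the position numbers 5, 7 and 9 the median difference was -0.02, 0.12 and 0.06.

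The mitosis genes also varied together within groups. With each group's mean removed, the 741 pairs of genes had a median Pearson r of 0.479 over the 20 arrays, from -0.447 to 0.954, and 672 pairs were above 0. All genes of an array share its hybridization and brightness, and the arrays of low upper quartile were low for most of these genes. The kinetochore motor Cenpe followed the mean of the others most closely (r = 0.938), and Cdk1 least (r = 0.0907). Outside the lists used here, the genes whose group-centred level was most like the mean of the mitosis genes were Acbd5 (r = 0.971), Cntrl (0.970), Tmtc3 (0.966), Lpgat1 (0.964) and Srrm1 (0.951), over the same 20 arrays.

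Further genes of the division cycle were taken from 9 other lists. Their shares are to be read against 19.3% of all genes lower and 20.3% higher in treated E46, and 21.1% lower and 24.8% higher in treated A2/12. With only the 12487 genes above the receptor range tested, these were 28.1% and 31.6%, and 30.3% and 37.1%. Among 24 other kinetochore genes, 6 fell (25%) and 3 rose (12.5%) in treated E46 (median -0.12), so the share that fell was near that of all genes. In treated A2/12 11 fell (45.8%) and 5 rose (20.8%), with a median of -0.25. Cenpm, a constitutive centromere protein, had the smallest p of these in E46 and fell in both lines (-1.15 ± 0.09 in treated E46 and -1.48 ± 0.09 in treated A2/12), followed by Cenpt (-0.75 ± 0.08 in treated E46 and -0.36 ± 0.08 in treated A2/12), while Dsn1 of the Mis12 complex rose (0.64 ± 0.08 in treated E46 and 0.49 ± 0.08 in treated A2/12). Among 36 other spindle and cytokinesis genes, 19 fell (52.8%) and 3 rose in treated E46 (median -0.29), and 27 fell (75%) and 3 rose in treated A2/12 (median -0.57). Cdca3, a mitotic entry factor, changed by -0.80 ± 0.06 in treated E46 and -1.61 ± 0.06 in treated A2/12. Fam83d and Kif22 fell in both lines as well (-0.89 ± 0.09 and -0.73 ± 0.07 in treated E46, -1.20 ± 0.09 and -1.15 ± 0.07 in treated A2/12).

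Of 19 condensin, cohesin and cohesion regulator genes, 5 fell (26.3%) and 3 rose in treated E46, and 12 fell (63.2%) and 3 rose in treated A2/12. The condensin subunit Ncapd2 changed by -0.51 ± 0.07 in treated E46 and -1.34 ± 0.07 in treated A2/12, Ncaph by -0.52 ± 0.07 in treated E46 and -0.79 ± 0.07 in treated A2/12, and the cohesin acetyltransferase Esco2 by -0.67 ± 0.09 in treated E46 and -0.66 ± 0.09 in treated A2/12, all called. Of 16 anaphase-promoting complex subunits and inhibitors, 6 fell (37.5%) and 2 rose in treated E46, and 7 fell (43.8%) and 3 rose in treated A2/12. Fbxo5, the Emi1 inhibitor of that complex, changed by -1.14 ± 0.10 in treated E46 and -0.59 ± 0.10 in treated A2/12. The subunits Anapc13 (-0.89 ± 0.10 in treated E46 and -1.55 ± 0.10 in treated A2/12) and Anapc2 (-0.43 ± 0.07 in treated E46 and -0.62 ± 0.07 in treated A2/12) fell too.

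Of 17 further entry kinases and phosphatases, 7 fell (41.2%) and 3 rose (17.6%) in treated E46, and 6 fell (35.3%) and 4 rose (23.5%) in treated A2/12. Ccnf, which encodes cyclin F, fell in treated E46 (-0.73 ± 0.08) and rose in treated A2/12 (0.35 ± 0.08). Lats1, a kinase of the Hippo pathway, rose in both (0.51 ± 0.08 in treated E46 and 0.67 ± 0.08 in treated A2/12), as did the phosphatase subunit Ppp2r2a (0.62 ± 0.09 in treated E46 and 0.82 ± 0.09 in treated A2/12). Of 22 cell cycle transcription regulators, 9 rose (40.9%) and 4 fell (18.2%) in treated E46, and 13 rose (59.1%) and 6 fell (27.3%) in treated A2/12. Myc, a growth transcription factor, rose by 1.72 ± 0.07 in treated E46 and 2.08 ± 0.07 in treated A2/12. Lin54, the MuvB subunit that binds the TTTGAA element, rose as well (0.74 ± 0.08 in treated E46 and 0.60 ± 0.08 in treated A2/12). E2f7, a repressor of the E2F family, fell (-1.30 ± 0.09 in treated E46 and -0.98 ± 0.09 in treated A2/12).

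All 7 CDK inhibitors were measured, and 5 fell (71.4%) and 1 rose in each line, with medians of -0.91 in treated E46 and -1.37 in treated A2/12. Cdkn1a, which encodes p21, lay at 9.53, 9.61, 9.58 and 9.61 in treated E46, against 8.91, 9.21, 9.24 and 9.14 in E46 controls, a change of 0.46 ± 0.10 (adjusted p = 0.000583). It lay at 11.15, 11.22, 10.98 and 10.93 in treated A2/12, against 9.91, 9.72, 9.83 and 9.72 in A2/12 controls, a larger rise of 1.27 ± 0.10 (adjusted p = 5.97e-10). The INK4 inhibitors of the cyclin D kinases went the other way. Cdkn2c changed by -1.53 ± 0.11 in treated E46 and -2.40 ± 0.11 in treated A2/12. The changes of Cdkn2b were -1.16 ± 0.09 in treated E46 and -1.78 ± 0.09 in treated A2/12, those of Cdkn2a -0.91 ± 0.09 in treated E46 and -1.70 ± 0.09 in treated A2/12, and those of Cdkn2d -1.25 ± 0.13 in treated E46 and -1.22 ± 0.13 in treated A2/12. Cdkn1b, which encodes p27, fell too (-0.29 ± 0.07 in treated E46 and -1.37 ± 0.07 in treated A2/12), and Cdkn1c was called in neither line (-0.20 ± 0.10 in treated E46 and -0.06 ± 0.10 in treated A2/12).

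Of 7 G1 cyclins and their kinases, 4 fell (57.1%) and 1 rose in treated E46, and 3 fell (42.9%) and 1 rose in treated A2/12. Ccnd1, which encodes cyclin D1, averaged 8.18 ± 0.07 in treated E46 and 9.65 ± 0.08 in E46 controls (SD, n = 4 each), a change of -1.46 ± 0.08 (adjusted p = 1.63e-11). In treated A2/12 the change of 0.10 ± 0.08 was not called, and the difference between the lines was -1.56 ± 0.12 (adjusted p = 3.13e-09). Ccnd2, a related D-type cyclin, rose in both (0.91 ± 0.10 in treated E46 and 1.29 ± 0.10 in treated A2/12), and Ccne1 fell in both (-0.87 ± 0.07 in treated E46 and -0.64 ± 0.07 in treated A2/12). Of 27 DNA replication genes, 12 fell (44.4%) and 2 rose (7.41%) in treated E46 (median -0.15), and 8 fell and 8 rose (29.6% each) in treated A2/12 (median 0.04). Tk1, thymidine kinase, fell in both (-1.57 ± 0.08 in treated E46 and -1.54 ± 0.08 in treated A2/12), as did Rrm2 of ribonucleotide reductase (-0.82 ± 0.10 in treated E46 and -0.92 ± 0.10 in treated A2/12), and Cdt1, the origin licensing factor, rose (0.65 ± 0.07 in treated E46 and 0.67 ± 0.07 in treated A2/12).

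**Figure D5:**
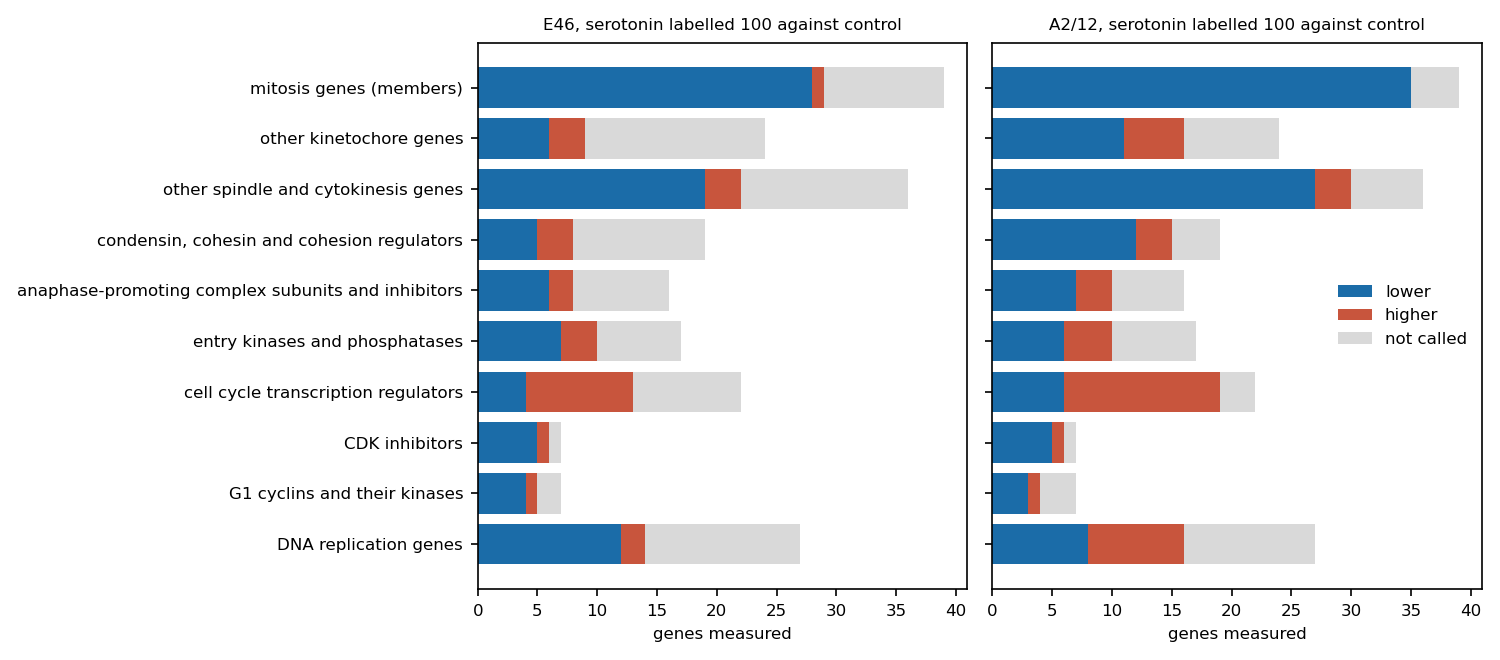
Genes measured (x axis) in the mitosis list and in 9 further lists, split into lower, higher and not called at an adjusted p below 0.05, for E46 (left) and A2/12 (right) at serotonin labelled 100 against control. The mitosis genes had 28 lower and 1 higher in E46 and 35 lower in A2/12, and the transcription regulators had more genes higher than lower in both lines.

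For 4 of the mitosis genes the array carries further probe sets, which were not used above. The other probe set of Mad2l1, with a mean level of 8.70, changed by -0.01 in treated E46 and 0.04 in treated A2/12, so both sets of this gene stayed near 0. The other set of Kif11, at a mean of 5.39, changed by -0.40 in treated E46 and -1.06 in treated A2/12, below 0 in both lines like the one used. The remaining sets of Top2a and Prc1 had mean levels of 3.10 to 4.02, within the receptor range.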

How the data were processed

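Total RNA from a pair of mouse cell lines was measured on 20 arrays, 4 per group. The deposited values are log2 levels from RMA, per the submitters' processing notes, a method that corrects background, normalizes between arrays and summarises probe sets (version not given in the sources used here). Of 35556 probe sets, 21218 carry 1 symbol in the array annotation (updated by Entrez ID for 21185), which left 18820 genes after the brightest probe set of each was kept. With limma 3.58.1 in R 4.3.3, group means were fitted over the 20 arrays together (15 residual degrees of freedom), followed by eBayes and Benjamini-Hochberg adjustment over all genes. Precision is limited by the number of arrays. A mitosis gene's change had a median standard error of 0.09, and 0.13 for the difference of responses. The code was tested on simulated data. The mitosis genes and all other lists were chosen with earlier results of these data known. Genes given by array were, per role, those with the smallest p in either line or the largest p in E46, those called against the majority, 8 with the smallest p for the difference, 2 for the labelled 1, 3 each way between control lines, and Mki67 and Cdk1; of each further list, up to 3 genes with the smallest p in E46, and all CDK inhibitors. Promoters came from RefSeq (GRCm38.p6), and no sequence of chromosome 18 was used. Plots used matplotlib 3.10.9 (Python 3.11.15).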

Additional observations from a re-analysis of the deposited data

Results flagged for a closer look

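In 11 of 195 sets of 4 arrays (39 mitosis genes in 5 groups), the highest or lowest array stood apart from the others by Dixon's test, which flags about 1 set in 20 by chance. E46 control array 1 was low for Spc25 (7.98), Melk (8.32) and Hmmr (7.78), and A2/12 control array 1 was low for Kif23 (9.74) and Tpx2 (9.70). A2/12 control array 3 was high for Cdc25c (7.98) and Nek2 (9.14). Treated E46 array 3 was low for Ccnb2 (11.22) and Cdca8 (8.52), and treated E46 array 1 was low for Birc5 (7.44). In E46 at the labelled 1, array 2 was high for Hmmr (8.49).

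The response to serotonin labelled 100 differed between the lines for 25 mitosis genes (limma interaction, adjusted p below 0.05), and for 22% of all genes. Tested against a fold of 1.5, 6 of these mitosis genes were called (4.2% of all genes). With the row as a block part of the calls ended, as listed above. As E46 minus A2/12 log2 change, where a positive value means a lower change in A2/12, the differences were 1.89 for Ccnb2, 1.29 for Cenpa, 1.22 for Cdc20, 0.97 for Kif2c, 0.85 for Plk1, 0.78 for Kif23, 1.21 for Kif11, 1.21 for Hmmr, 0.98 for Mki67, 0.70 for Bub1b, 0.87 for Anln, 0.87 for Ect2, 1.02 for Cdc25c, 0.52 for Ccna2, 0.62 for Nek2, 0.86 for Cenpe, 0.77 for Ttk, 0.56 for Top2a, 0.54 for Incenp, 0.48 for Prc1, 0.29 for Aurka, 0.34 for Tpx2, 0.39 for Ndc80 and 0.28 for Cdc25b. For Pttg1 the difference was -0.42, the lower change being in E46. These values are those of the test of the difference itself, with 4 arrays in each of the 4 groups.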

How the results depend on the processing

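The alternatives comprised a fit per line, trended and robust eBayes, array weights, replicate and position blocks, median centring or quantile normalization, dim genes left out, other choices of probe set, a test against 1.5-fold, the description's doses, each position number alone and each array left out. Main counts of called mitosis genes were 29 in treated E46, 35 in treated A2/12, 0 at the labelled 1, 30 for the labelled 100 against 1, 25 for the difference of responses and 14 between control lines; every count stayed within 1.5 times of these except as follows. Fits within position numbers 5, 7 and 9 alone have only 1 or 2 arrays per group, so their counts are not compared. Their median changes are given above. A fold threshold of 1.5 left 1, 21, 2, 6 and 1 called in treated E46, treated A2/12, 100 against 1, the difference and the control lines. Of all genes 8.21%, 13.8%, 7.84%, 4.2% and 9.27% were called, in the same order. In treated E46, 100 against 1 and the control lines the mitosis genes were thus called less often than all genes. Leaving out 1 array gave 27 to 31 in treated E46, 35 to 35 in treated A2/12, 0 to 0 at the labelled 1, 27 to 30 for 100 against 1, 23 to 26 for the difference and 10 to 16 between controls. Of all genes 36% to 38.6%, 43.5% to 44.8%, 0.00531% to 1.51%, 37.4% to 43.5%, 19.9% to 22.6% and 36.2% to 38.2% were then called, in the same order. Without the 4 arrays of low upper quartile, with the upper quartile as a covariate, or without E46 control array 3 and A2/12 control array 4 (which had high intestinal or macrophage genes), all chosen after seeing the data, the counts were 31, 31 and 27 in treated E46, and 35 each time in treated A2/12. Those 3 settings gave 26, 27 and 22 for the difference. Of all genes they gave 40.7%, 42.6% and 37.9% in treated E46, 47.8%, 47.3% and 44.5% in treated A2/12, and 25.4%, 27.9% and 18.9% for the difference. A row block takes the change at 100 against control in each line from treated arrays 1 and 2 and control array 4 alone. With the position row as a block, also chosen after seeing the data, the counts were 19 in treated E46, 32 in treated A2/12, 0 at the labelled 1, 17 for 100 against 1 and 12 for the difference. Of all genes 20.9%, 31%, 0.0319%, 37% and 8% were called, in the same order, and the control lines share no row.

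The doses of the description exchange the 2 E46 serotonin groups by construction. Then 0 mitosis genes were called at 100 against control (limma; 1 at an unadjusted p below 0.05) and 29 at 1 against control, and the 30 called between the doses had the opposite direction. Among E46 changes at 100 that were not called, those of Cdc20, Cdc25c, Cenpe, Kif2c and Tpx2 took the other sign, as did 21 called ones: 0.11 for Anln, 0.12 for Aurka, 0.10 for Ccna2, 0.049 for Ccnb2, 0.018 for Cdca8, 0.089 for Cdk1, 0.15 for Cenpf, 0.081 for Ect2, 0.21 for Hmmr, 0.18 for Kif11, 0.053 for Kif23, 0.058 for Kif4, 0.062 for Melk, 0.0094 for Mki67, 0.10 for Ndc80, -0.053 for Nek2, 0.18 for Nuf2, 0.074 for Prc1, 0.0042 for Pttg1, 0.27 for Spc25 and 0.017 for Top2a. Aurka at 1 against control was -0.38, Mki67, Spc25, Cenpe, Kif2c and Nek2 at 100 against 1 were 1.02, 1.22, 0.40, 0.18 and -0.40, and the Birc5 difference between lines was 0.34. With these doses the difference was called for 34 mitosis genes with the lower change in A2/12 (16.9% of all genes). For 0 it was called with the lower change in E46 (22.7% of all genes), and the median difference was 0.89. The A2/12 results do not use these labels.

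Groups share replicate numbers, but same-numbered arrays deviated together only in some pairs: the correlations of their deviations from group means ran from -0.262 to 0.406, with 8 of 20 over 0.1. With the replicate number as a block the counts were 29 in treated E46, 35 in treated A2/12, 0 at the labelled 1, 30 for 100 against 1, 25 for the difference and 14 between controls. Of all genes 39.7%, 46%, 0.00531%, 41.3%, 21.9% and 39.2% were called, in the same order.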
